A study of Mus musculus with 12 samples.

Results

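The 42 genes described here encode proteins that copy DNA in S phase, that supply the nucleotides for it, or that control entry into it. They were taken from the deposited expression table by gene symbol. All 42 had a row there, and all 42 passed the filter of at least 1 CPM (read counts scaled to a fixed library size) in at least 3 of the 12 libraries, as did 15232 of the 24054 rows in all. By role they fall into 6 subunits of the MCM helicase, 4 origin licensing factors, 6 factors that load or form the active helicase, 6 genes of the sliding clamp and its loader, 5 DNA polymerase subunits, 4 genes of lagging strand maturation and single-strand binding, 5 genes of deoxynucleotide synthesis, 3 regulators of the G1/S transition and 3 genes of chromatin assembly and maintenance methylation.

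RNA was sequenced from brain tumours that had grown after tumour cells were placed in the striatum of C57BL/6 mice labelled as female. There were 4 groups of 3 mice with 1 library per mouse. Old hosts received nicotinamide mononucleotide (NMN, from which cells make the coenzyme NAD) at 300 mg per kg per day, or shared their circulation with another mouse through parabiosis, or stayed untreated at 16 months of age. The last group held untreated young hosts of 2 months. All 12 tumours came from cells labelled ms7080, while the protocol text calls the injected cells BC cells, and tissue was taken once a mouse showed symptoms. Young mice were bought from commercial breeders and old mice came from an ageing colony, so age and source cannot be told apart. The sources used here do not give the age of the parabiosis partners, and no sequencing batch is labelled.

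Before S phase, the origin recognition complex, Cdc6 and Cdt1 load the ring-shaped MCM helicase onto DNA at replication origins. In S phase the loaded ring joins Cdc45 and the GINS complex to form the active helicase, the polymerase alpha complex starts each new strand, and the epsilon and delta polymerases extend the strands on the sliding clamp Pcna. Ribonucleotide reductase makes deoxynucleotides, thymidylate synthase (Tyms) makes thymidylate, and cyclin E and the E2F factors switch much of this gene set on as cells pass from G1 into S phase. In tumours, RNA of these genes comes mainly from dividing cells.

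RefSeq promoter windows were available for 35 of the 42 genes, each running from 250 bases before to 50 bases after a transcription start (build GRCm38.p6). They were searched on both strands for 4 words of 8 bases that match the recognition sequence of E2F factors, TTTCCCGC, TTTCGCGC, TTTGCCGC and TTTGGCGC. At least 1 word was found in 14 of these 35 genes (40%), against 704 of the 27025 genes in the RefSeq table (2.605%). The shorter CCAAT box was found in 20 of 35 genes (57.1%, against 41.1% of all genes), and TTTGAA, a word of cell cycle homology regions, in 4 of 35 (11.4%, against 20.2%). A match describes these letters only and shows neither binding nor activity. The 160 bases before the start are printed 5′ to 3′ for 5 genes with E2F words in capitals. These include the genes whose values, given below, lay closest to the median of the 42 genes (Pcna) and farthest from it (Tyms). Mcm6, at chr1:128359706-128359865 on the minus strand, holds 3 words, of which the pair starting at -110 and -106 overlaps and is printed as 1 run, and the last starts at -47. Gins3, at chr8:95633399-95633558 on the plus strand, holds 1 word at -41. Rfc3, at chr5:151651209-151651368 on the minus strand, holds 1 at -10, and another that begins at the start itself is not printed. Pcna, at chr2:132253181-132253340, and Tyms, at chr5:30073626-30073785, both on the minus strand, hold none of these words in the stretch shown or in the rest of the window.
Mcm6: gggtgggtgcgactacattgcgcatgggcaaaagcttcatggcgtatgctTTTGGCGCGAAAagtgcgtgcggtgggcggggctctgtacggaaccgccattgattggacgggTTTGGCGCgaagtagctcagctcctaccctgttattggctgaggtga
Gins3: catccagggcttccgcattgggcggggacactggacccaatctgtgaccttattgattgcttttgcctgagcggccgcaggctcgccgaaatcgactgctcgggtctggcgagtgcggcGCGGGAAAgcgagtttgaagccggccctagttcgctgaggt
Rfc3: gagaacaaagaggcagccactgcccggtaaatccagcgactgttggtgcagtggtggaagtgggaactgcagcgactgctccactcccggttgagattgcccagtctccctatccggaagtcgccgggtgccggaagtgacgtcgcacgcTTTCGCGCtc
Pcna: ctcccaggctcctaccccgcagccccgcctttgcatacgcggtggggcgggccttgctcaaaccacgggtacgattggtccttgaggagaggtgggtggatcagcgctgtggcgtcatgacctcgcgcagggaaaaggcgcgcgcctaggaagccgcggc
Tyms: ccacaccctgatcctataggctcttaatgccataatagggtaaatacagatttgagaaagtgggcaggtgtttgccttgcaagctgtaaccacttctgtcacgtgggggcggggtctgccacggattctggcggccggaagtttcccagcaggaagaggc

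Reads recovered from the deposited values numbered 18566096 to 26779406 per library. The fewest behind any of the 42 genes in any library was 51, for Pole2. The 42 genes varied together from library to library. Each gene's log2(CPM + 1) was set against its own mean over the 12 libraries, and the median of the 42 deviations was taken in each library. In NMN tumours this median was -0.78, 0.19 and -0.14 (replicates 1, 2 and 3), and in parabiosis tumours 0.26, 0.24 and -0.24. In untreated old tumours it was 0.025, 0.12 and 0.30, and in young tumours 0.36, 0.30 and -0.66. A single library thus lay low in 3 of the 4 groups, and the 3 untreated old tumours lay closest together. In NMN replicate 1, 41 of the 42 genes were below their own mean, with Tyms the exception, and 31 had their lowest value of all 12 libraries there. In young replicate 3 all 42 were below their mean, and in untreated old replicate 3 all 42 were above it.

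**Figure D1:**
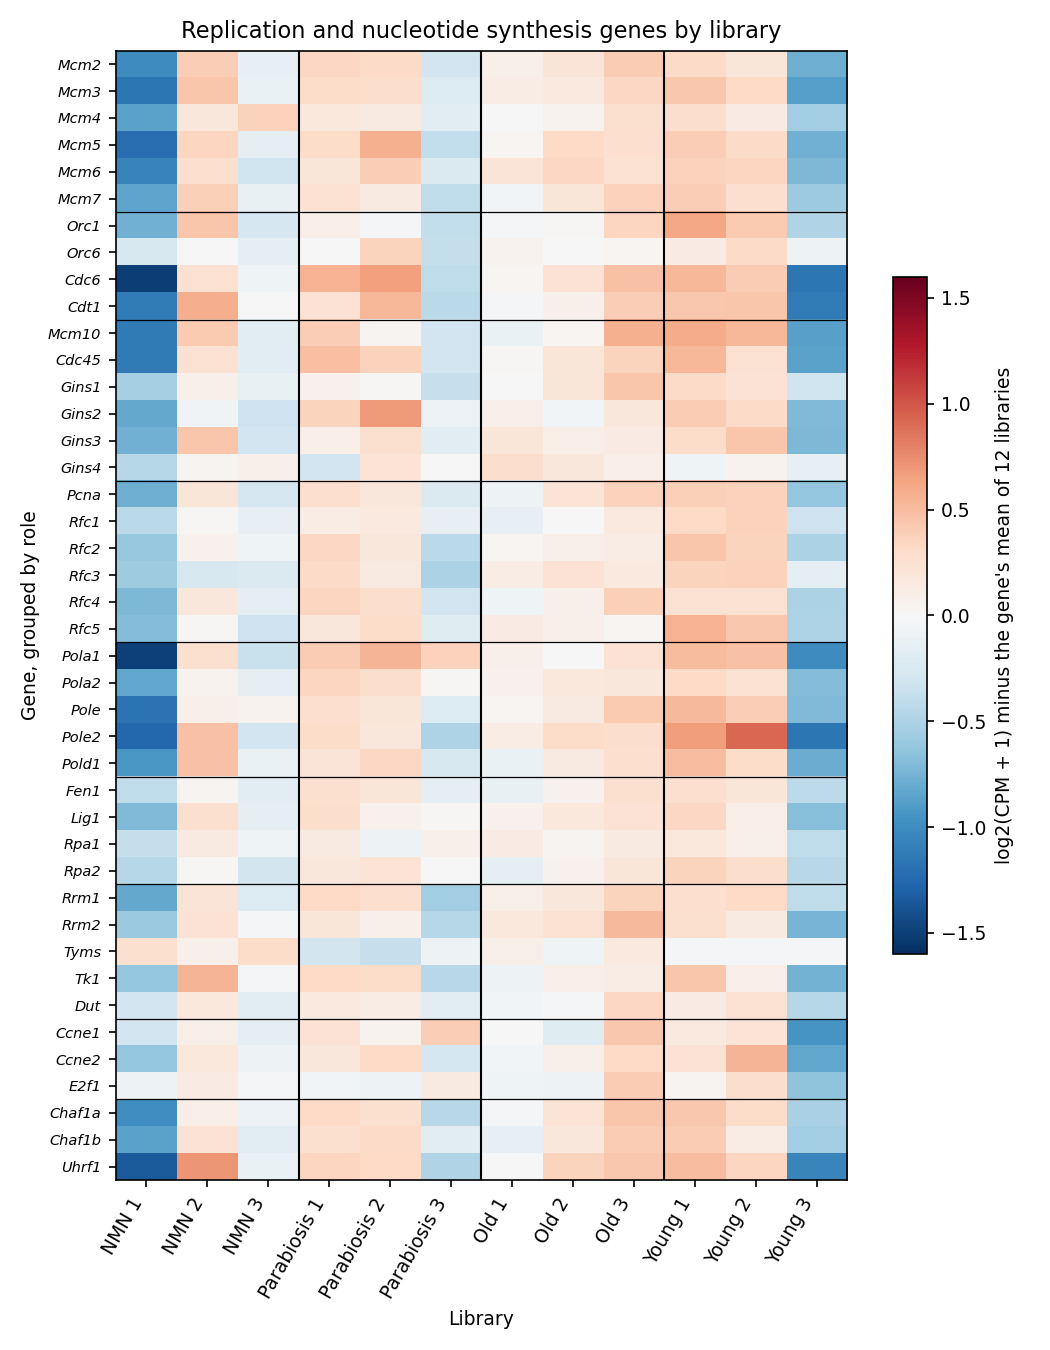
Rows are the 42 genes, ordered and ruled off by role, and columns the 12 libraries by group; colour gives log2(CPM + 1) minus the gene's mean over the libraries. NMN replicate 1 and young replicate 3 are blue over nearly all genes, with medians of -0.78 and -0.66, and Tyms is the row that does not follow.

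The median SD of the 42 genes within groups was 0.42 on the log2 scale. The highest library exceeded the lowest by 1.50-fold for Rpa1, a subunit of the single-strand binding complex, by 2.51-fold at the median gene and by 6.20-fold for Pole2, a subunit of polymerase epsilon. The SD over the 12 libraries ranged from 0.33 to 0.69 (median 0.50) for the 14 genes with an E2F word in a promoter window and from 0.20 to 0.56 (median 0.37) for the 21 with a window and no such word. Pcna followed the median of the 42 genes most closely, with a root mean square distance of 0.065, and Tyms least, with 0.48. Pola1 (0.32), Gins4 (0.32), Pole2 (0.31) and Cdc6 (0.31) followed Tyms in that order.

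Other dividing-cell genes and markers of host brain tissue moved with these library differences. A score of 20 mitosis genes (mean log2 deviation) was -0.71, 0.16 and -0.17 in NMN tumours, 0.34, 0.28 and -0.43 in parabiosis tumours, 0.015, 0.062 and 0.35 in untreated old tumours and 0.36, 0.29 and -0.54 in young tumours, so the same 3 libraries were lowest in their groups. The summed CPM of 12 neuron markers was highest in NMN replicate 1 (4757) and parabiosis replicate 3 (3474), and within young tumours in replicate 3 (1113, against 305 and 237 in the other two). By group, this sum ran from 2049 to 4757 CPM in NMN tumours, from 1401 to 3474 CPM in parabiosis tumours, from 954 to 1740 CPM in untreated old tumours and from 237 to 1113 CPM in young tumours. In bulk tissue fewer dividing cells and less RNA per cell cannot be told apart. Although the hosts are labelled female, 4 Y-linked genes (Ddx3y, Eif2s3y, Kdm5d and Uty, chosen after their values were seen) were read in all 12 libraries. Their summed CPM was 123.5, 239.9 and 158.0 in NMN tumours, 201.4, 246.7 and 91.0 in parabiosis tumours, 206.9, 271.1 and 269.4 in untreated old tumours and 268.5, 274.4 and 387.2 in young tumours. The Y-linked sum was thus low in NMN replicate 1 and parabiosis replicate 3, where the 42 genes were low. It was the highest of all in young replicate 3, where the 42 genes were also low. Xist, the RNA of the inactive X chromosome, was at 5.33 CPM there and at 1.88 and 2.76 CPM in untreated old replicates 1 and 2. The sources used here do not give the sex of the injected cells. Whether the Y-linked values stand for the same cells in every library was not tested. The part of tissue makeup in the differences between groups was not tested beyond covariate fits. These used the brain tissue score (neuron and myelin markers) or the Y-linked score. The brain tissue score ran from 0.54 to 1.34 in NMN tumours and from 0.035 to 1.04 in parabiosis tumours. It ran from -0.30 to 0.29 in untreated old tumours and from -1.93 to -0.15 in young tumours. NMN did not overlap untreated old tumours, and young tumours overlapped neither treated group. Values with this covariate there extend a fitted slope beyond scores that the groups share.

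**Figure D2:**
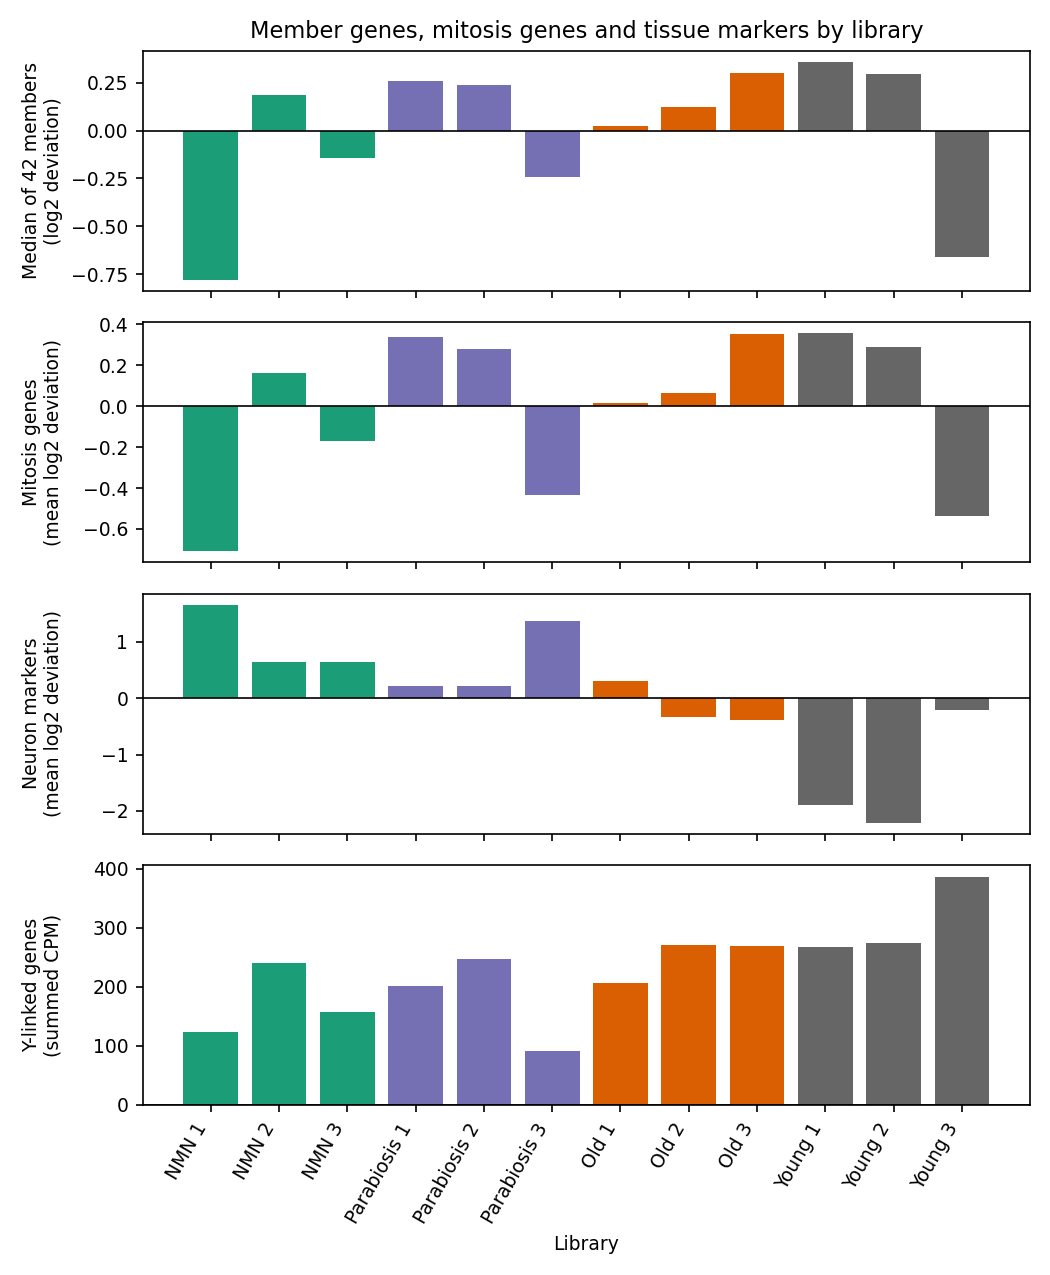
Bars give, for each of the 12 libraries, the median log2 deviation of the 42 genes, the mean log2 deviation of 20 mitosis genes and of 12 neuron markers, and the summed CPM of 4 Y-linked genes. NMN replicate 1, parabiosis replicate 3 and young replicate 3 have the lowest top bar and the highest neuron bar of their groups, and young replicate 3 also has the highest Y-linked bar, at 387.2 CPM.

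The comparison of NMN-treated with untreated old mice asked what NMN does to the tumours of old hosts. The mean was lower in NMN tumours for 41 of the 42 genes, with a median difference of -0.38 on the log2(CPM + 1) scale, against 0.011 over all 15232 genes. In all such counts the mean is that of log2(CPM + 1), which can differ in order from the mean CPM. In the same comparison all 12 neuron markers had a higher mean with NMN (median 1.16, with 10 not overlapping) and so had all 9 myelin markers (median 0.66, with 5 not overlapping). None passed the test (limma, adjusted over all genes), and the same test called 0% of all genes. At an unadjusted limma p under 0.05 there was 1 of the 42, Rfc3, and edgeR and DESeq2 on recovered reads also called 0 with 1 at an unadjusted p under 0.05, where DESeq2 called 0.302% of all genes and edgeR 0%. All 3 NMN libraries lay below all 3 untreated old libraries for 6 of the 42 genes (Orc6, Gins2, Gins4, Rfc3, Rfc5 and Pola2), against 6.92% of all genes, and above them for 0, against 12.6%. Without NMN replicate 1 the median was -0.11, with 36 genes lower and 6 higher, and without NMN replicate 2 it was -0.62.

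By role, the medians against untreated old tumours ran from -0.55 to -0.19. The 6 helicase subunits had a median of -0.48, the 4 licensing factors -0.32, the 6 activation factors -0.43, the clamp and its loader -0.39 and the 5 polymerase subunits -0.55. The 4 lagging strand and single-strand binding genes had a median of -0.26, the 5 nucleotide synthesis genes -0.19, the 3 G1/S regulators -0.21 and the 3 chromatin genes -0.51. All members of each group had a lower mean with NMN except Tyms among the nucleotide synthesis genes. The brain tissue scores of NMN and untreated old tumours did not overlap, so values with that covariate extend beyond shared scores. With the brain tissue score (neuron and myelin markers) as a covariate the median of the 42 was 0.14, with 38 genes higher, and with the score of the Y-linked genes as a covariate, added after the data were seen, it was -0.22, with 40 lower; 0 were called under either.

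Mcm6, a subunit of the helicase ring, had 45.4, 116.0 and 76.7 CPM in NMN tumours and 110.7, 120.7 and 113.6 CPM in untreated old tumours. It had 109.8, 125.9 and 81.3 CPM in parabiosis tumours, against 123.8, 122.3 and 57.8 CPM in young tumours. The untreated old tumours were the narrow group, and NMN replicate 2 lay inside their range. The means with NMN and without were 79.4 ± 35.4 and 115 ± 5.16 CPM (SD, n = 3 each) and differed on the log2 scale by -0.63 ± 0.35 (SE, limma adjusted p = 0.4996). Mcm2, another ring subunit, had 39.2, 105.0 and 72.9 CPM in NMN tumours and 101.05, 98.8 and 64.7 CPM in parabiosis tumours. It had 85.3, 92.5 and 106.2 CPM in untreated old tumours and 99.4, 91.7 and 46.2 CPM in young tumours, so each of the other groups overlapped the untreated old one. The 4 remaining subunits, Mcm3, Mcm4, Mcm5 and Mcm7, had log2 differences of -0.47, -0.20, -0.55 and -0.37 between NMN and untreated old tumours, with SEs of 0.30 to 0.41.

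Cdc6, which loads the helicase at origins, varied more than any other of the 4 licensing factors. It had 7.51, 27.8 and 22.2 CPM in NMN tumours and 34.8, 37.2 and 17.3 CPM in parabiosis tumours, and 23.9, 27.4 and 32.7 CPM in untreated old tumours and 34.0, 31.1 and 9.89 CPM in young tumours. Its log2 difference between NMN and untreated old tumours was -0.69 ± 0.53 (SE, limma adjusted p = 0.571), the most negative of the 42 and with the second largest SE. Cdt1, its partner in loading, differed by -0.32 ± 0.49 and Orc1, the largest subunit of the origin recognition complex, by -0.31 ± 0.34. Orc6, another subunit of that complex, had 25.1, 29.9 and 27.1 CPM in NMN tumours, all below the 31.2, 29.96 and 30.9 CPM of untreated old tumours, though the gap between the nearest libraries was under 0.1 CPM.

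The GINS genes, whose products complete the active helicase, held 2 of the 4 smallest p-values of this comparison. Gins1 had 5.20, 8.52 and 7.30 CPM in NMN tumours and 8.40, 8.11 and 5.99 CPM in parabiosis tumours, against 7.93, 9.26 and 11.2 CPM in untreated old tumours and 10.1, 9.57 and 6.22 CPM in young tumours. Its log2 difference was -0.40 ± 0.23 with NMN (SE, limma adjusted p = 0.501). Gins4 had 9.33, 13.6 and 14.0 CPM in NMN tumours and 10.4, 15.5 and 13.0 CPM in parabiosis tumours, against 16.1, 15.1 and 14.3 CPM in untreated old tumours and 12.4, 13.6 and 11.9 CPM in young tumours. The untreated old libraries lay above all NMN and all young libraries, and the log2 difference with NMN was -0.30 ± 0.18 (SE, limma adjusted p = 0.506). Gins2 had 5.45, 9.96 and 8.01 CPM with NMN and 13.5, 17.3 and 9.60 CPM with parabiosis, against 11.2, 10.0 and 11.9 CPM in untreated old tumours and 14.1, 13.1 and 5.97 CPM in young tumours. Gins3, Cdc45 and Mcm10, which join or recruit the active helicase, differed by -0.35, -0.54 and -0.46 with NMN, with SEs of 0.34 to 0.45.

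Rfc3, a subunit of the clamp loader, had the smallest p-value of the 42 with NMN. It had 15.025, 19.0 and 19.4 CPM in NMN tumours and 28.6, 25.3 and 15.8 CPM in parabiosis tumours, and 25.0, 27.0 and 25.6 CPM in untreated old tumours and 29.6, 29.9 and 20.6 CPM in young tumours. All 3 NMN libraries lay below all untreated old and all young libraries, and parabiosis replicate 3 lay among them. The means were 17.8 ± 2.40 CPM with NMN and 25.9 ± 1.05 CPM in untreated old tumours (SD, n = 3 each) and differed on the log2 scale by -0.52 ± 0.21 (SE, limma adjusted p = 0.480). Against young tumours it was -0.55 ± 0.21 (limma adjusted p = 0.139), the smallest adjusted p of the 42 in any of the 6 comparisons. Pcna, the clamp itself, had 66.4, 132.4 and 95.5 CPM in NMN tumours and 138.8, 130.9 and 98.3 CPM in parabiosis tumours, and 109.0, 134.0 and 149.3 CPM in untreated old tumours and 150.8, 148.6 and 74.7 CPM in young tumours. Its groups all overlapped, in the same order of libraries as the median of the 42 within each treated group. Rfc1, Rfc2, Rfc4 and Rfc5, the other loader subunits, differed by -0.19, -0.28, -0.36 and -0.41 with NMN.

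**Figure D3:**
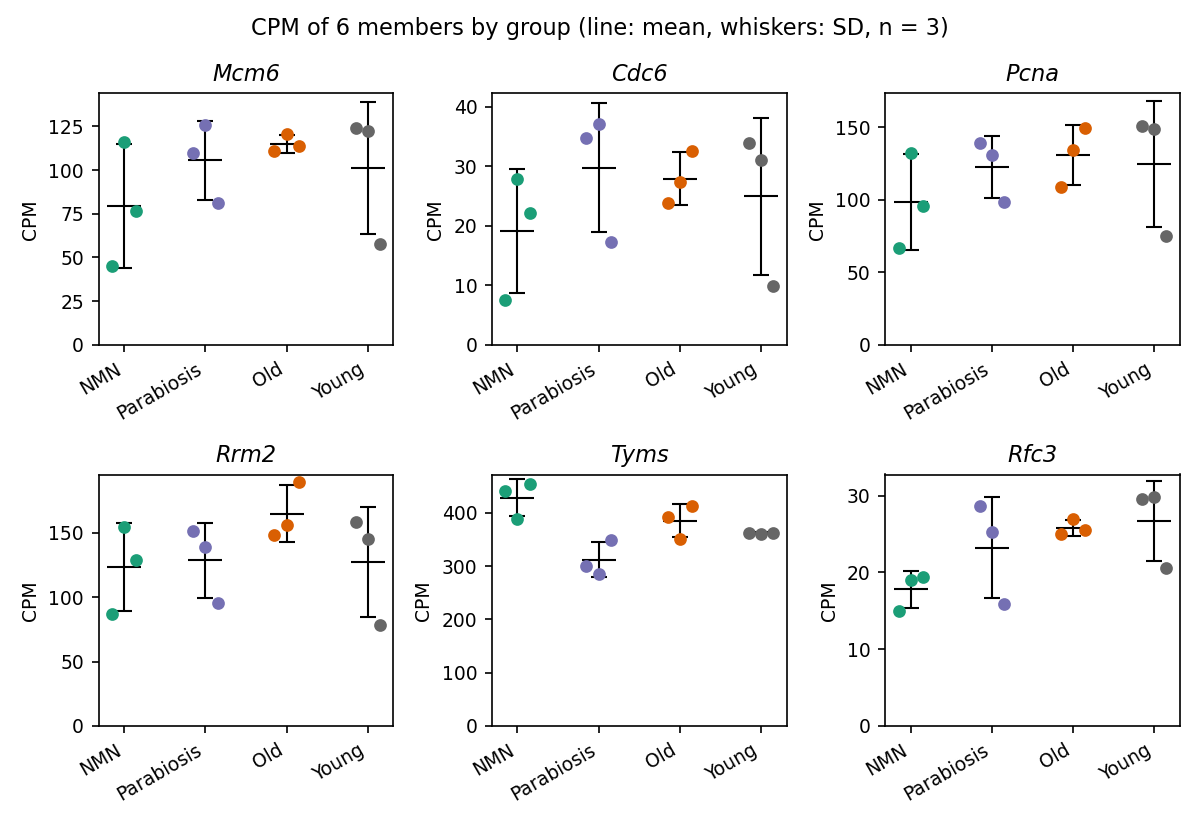
Points are CPM of the 3 libraries of each group for 6 of the 42 genes, with the mean as a line and the SD as whiskers, on axes from 0. Rfc3 lies at 15.025 to 19.4 CPM in NMN tumours, below the 25.0 to 27.0 CPM of untreated old tumours, while Tyms lies at 389.5 to 454.3 CPM with NMN, above the 285.5 to 349.1 CPM of parabiosis tumours.

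The polymerase subunits included Pole2, the gene with the widest range of the 42. Pole, the catalytic subunit of polymerase epsilon, had 37.2, 90.7 and 88.8 CPM in NMN tumours and 103.2, 97.9 and 73.8 CPM in parabiosis tumours, and 87.4, 94.9 and 115.05 CPM in untreated old tumours and 122.9, 113.2 and 52.0 CPM in young tumours. Pola1, the catalytic subunit of polymerase alpha and the gene of the 42 that lies on the X chromosome, had 23.3, 80.7 and 52.4 CPM in NMN tumours and 89.4, 98.4 and 87.3 CPM in parabiosis tumours. It had 71.1, 67.1 and 79.2 CPM in untreated old tumours and 96.4, 93.3 and 33.0 CPM in young tumours. Parabiosis replicate 3, low for most of the 42 genes, was not low for Pola1, so that all parabiosis libraries lay above all untreated old and all NMN libraries. The log2 difference was -0.63 ± 0.45 between NMN and untreated old tumours (SE, limma adjusted p = 0.549), and -0.97 ± 0.45 between NMN and parabiosis (SE, limma adjusted p = 0.525). Pole2 had 2.11, 9.34 and 5.01 CPM with NMN and 8.10, 7.41 and 4.28 CPM with parabiosis, against 7.08, 8.14 and 8.05 CPM in untreated old tumours and 10.9, 13.0 and 2.34 CPM in young tumours.

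Fen1, which trims the RNA-primed ends of Okazaki fragments, differed by -0.25 ± 0.21 between NMN and untreated old tumours and Lig1, which seals them, by -0.36 ± 0.27 (SE). Rpa1 had 47.9, 69.2 and 59.4 CPM in NMN tumours and 69.0, 59.3 and 66.0 CPM in parabiosis tumours, and 68.8, 64.8 and 69.0 CPM in untreated old tumours and 70.3, 67.0 and 46.8 CPM in young tumours. Its lowest libraries were again young replicate 3 and NMN replicate 1.

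Tyms, which makes the thymidylate needed for DNA, stood apart from the other 41 genes. It had 442.1, 389.5 and 454.3 CPM in NMN tumours and 301.3, 285.5 and 349.1 CPM in parabiosis tumours. It had 393.3, 350.9 and 413.0 CPM in untreated old tumours and 363.1, 360.7 and 362.5 CPM in young tumours. The NMN libraries were above all parabiosis and all young libraries. The parabiosis libraries were below all others, though the highest of them, at 349.1 CPM, was close to the lowest untreated old one, at 350.9 CPM. The 3 young libraries lay within 3 CPM of each other although 1 of them was low for the rest of the list. The log2 difference from untreated old tumours was 0.15 ± 0.11 with NMN (SE, limma adjusted p = 0.548) and -0.31 ± 0.11 with parabiosis (SE, limma adjusted p = 0.837). Between NMN and parabiosis it was 0.46 ± 0.11 (SE, limma adjusted p = 0.255). DESeq2 on recovered reads gave the same difference as 0.45 with an adjusted p of 0.0106, while the edgeR count of called members was 0, so the call depends on the tool. In the F test over the 4 groups Tyms again had the smallest p of the 42 (limma adjusted p = 0.152, DESeq2 adjusted p = 0.0158), where DESeq2 called 10.6% of all genes.

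The other nucleotide genes followed the list. Rrm2, the regulated subunit of ribonucleotide reductase, had 87.0, 154.5 and 128.9 CPM in NMN tumours and 151.3, 139.2 and 95.8 CPM in parabiosis tumours, and 148.0, 156.3 and 189.7 CPM in untreated old tumours and 158.3, 145.5 and 78.2 CPM in young tumours. Tk1, the thymidine kinase of the salvage route, had 9.33, 22.2 and 14.6 CPM in NMN tumours and 18.9, 18.6 and 10.7 CPM in parabiosis tumours, and 14.0, 16.1 and 16.3 CPM in untreated old tumours and 20.7, 16.0 and 8.40 CPM in young tumours. The ranges of the 4 groups overlapped for both genes, and Rrm2 was highest in untreated old replicate 3. Rrm1, the large subunit of ribonucleotide reductase, differed by -0.49 ± 0.30 between NMN and untreated old tumours and Dut, which removes dUTP, by -0.19 ± 0.20 (SE).

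Among the regulators, E2f1, an activating E2F factor, had 19.4, 22.5 and 20.3 CPM in NMN tumours and 19.8, 19.3 and 22.8 CPM in parabiosis tumours, and 19.5, 19.4 and 27.5 CPM in untreated old tumours and 21.2, 25.0 and 12.8 CPM in young tumours. NMN replicate 1 was close to its group for E2f1, unlike for the helicase subunits, and young replicate 3 was low as for the rest. Ccne1, which encodes cyclin E1, had 11.6, 15.5 and 12.9 CPM in NMN tumours and 17.2, 15.2 and 19.4 CPM in parabiosis tumours, and 14.6, 12.6 and 19.9 CPM in untreated old tumours and 16.3, 17.0 and 7.08 CPM in young tumours. Parabiosis replicate 3 was the highest of its group for Ccne1 and E2f1, where it was low for most other members. Ccne2, which encodes cyclin E2, had 12.4, 22.1 and 18.4 CPM in NMN tumours and 22.2, 24.7 and 15.9 CPM in parabiosis tumours, and 18.9, 20.9 and 24.7 CPM in untreated old tumours and 23.1, 29.05 and 10.6 CPM in young tumours. Uhrf1, which brings the maintenance methyltransferase to newly copied DNA, had 39.1, 165.8 and 93.6 CPM in NMN tumours and 128.3, 126.8 and 72.3 CPM in parabiosis tumours, and 101.1, 129.4 and 136.8 CPM in untreated old tumours and 143.3, 128.3 and 48.2 CPM in young tumours. NMN tumours thus held both the lowest and the highest Uhrf1 value of the 12 libraries. Chaf1a and Chaf1b, subunits of the factor that puts histones on new DNA, differed by -0.54 ± 0.33 and -0.42 ± 0.31 between NMN and untreated old tumours (SE).

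Parabiosis was compared with the same 3 untreated old tumours, so these values share their reference with those of NMN. Here 32 of the 42 genes had a lower mean and 10 a higher one, with a median of -0.056, against 0.021 over all genes. None passed the limma test, which called 0% of all genes, and 1 of the 42 (Tyms) had an unadjusted p under 0.05; edgeR and DESeq2 likewise called 0, with 1 each at an unadjusted p under 0.05, and DESeq2 called 0.289% of all genes. Of the neuron markers 11 of 12 had a higher mean with parabiosis (median 0.90), and of the myelin markers 8 of 9 (median 0.37). Pola1 was higher in all parabiosis libraries (6.99% of all genes were) and Tyms lower in all (6.7% of all genes were). After Tyms, the smallest p-values belonged to Gins1, with a log2 difference of -0.30 ± 0.23, Rrm2, with -0.37 ± 0.29, and Gins4, with -0.23 ± 0.18 (SE, limma adjusted p = 0.904 for each). Rrm2 averaged 129 ± 29.2 CPM with parabiosis and 165 ± 22.1 CPM in untreated old tumours (SD, n = 3 each). The sign of the median rested on single libraries: without parabiosis replicate 3 it was 0.077, with 34 genes higher, and without untreated old replicate 3 it was 0.00012, with 21 higher and 21 lower. It was 0.26 with the brain tissue covariate and 0.12 with the Y-linked covariate.

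By role, the parabiosis medians against untreated old tumours lay between -0.20 for the nucleotide synthesis genes and 0.0010 for the lagging strand and single-strand binding genes. All 6 helicase subunits and all 3 chromatin genes had a lower mean with parabiosis, with medians of -0.10 and -0.17. Gins2 had the second most positive difference after Pola1, with 13.5 ± 3.83 CPM against 11.1 ± 0.95 CPM (SD, n = 3 each) and differed on the log2 scale by 0.23 ± 0.31 (SE, limma adjusted p = 0.926).

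**Figure D4:**
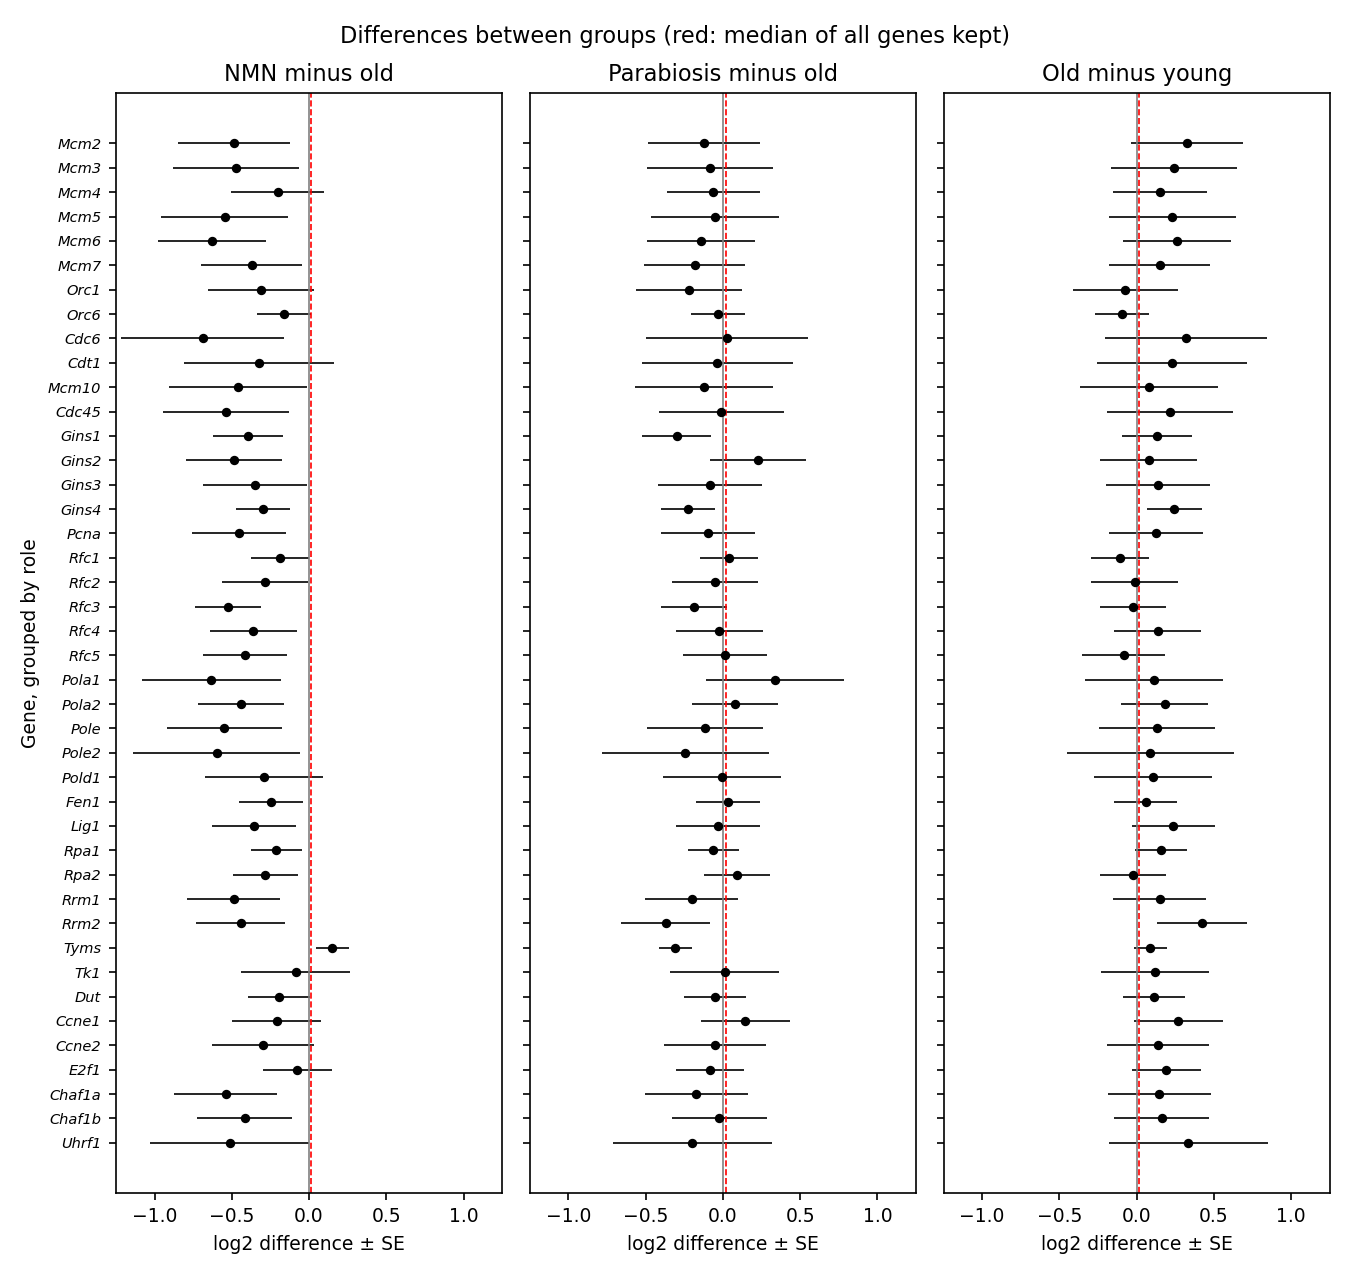
Points are log2(CPM + 1) differences between groups for the 42 genes, ordered by role, with SE as bars; the dashed red line is the median over all 15232 genes. Between NMN and untreated old tumours 41 points lie below 0 and Tyms above, between parabiosis and untreated old 32 lie below, and between untreated old and young 35 lie above.

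The age comparison set untreated old against young tumours. The mean was higher in old tumours for 35 of the 42 genes, with a median of 0.14, against 0.015 over all genes. None passed the limma test, which called 0% of all genes, and 0 of the 42 had an unadjusted p under 0.05 in limma, edgeR or DESeq2, the last of which called 0.473% of all genes. All 12 neuron markers had a higher mean in old tumours (median 1.40), as had 8 of 9 myelin markers (median 1.12). Gins4 was higher in all old libraries (6.95% of all genes were), and 0 of the 42 were lower in all (6.6% of all genes were). Its mean was 15.2 ± 0.94 CPM in old hosts against 12.6 ± 0.90 CPM in young ones (SD over 3 libraries), and the difference on the log2 scale was 0.24 ± 0.18 (SE, limma adjusted p = 0.829). Rrm2 had the smallest p, at 165 ± 22.1 CPM in old hosts against 127 ± 43.0 CPM in young ones, differing on the log2 scale by 0.42 ± 0.29 (SE, limma adjusted p = 0.817). Rpa1 and Ccne1 came next after Gins4, with 0.16 ± 0.17 and 0.27 ± 0.29 (SE, limma adjusted p = 0.896 and 0.897).

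The direction of the age difference rested on young replicate 3. Without it the median was -0.17, with 39 of the 42 genes lower in old tumours, and without young replicate 1 or 2 it was 0.32 or 0.28. Leaving out untreated old replicate 3 gave 0.042. By role, the median was highest for the helicase subunits, at 0.24, and lowest for the clamp and its loader, at -0.020, where Rfc1, Rfc2, Rfc3 and Rfc5 had a lower log2 mean in old tumours. Rpa2, Orc1 and Orc6 were the other 3 genes with a lower mean on the log2 scale, and in plain CPM the mean of Mcm10, Pola1 and Pole2 was lower as well. With the brain tissue covariate all 42 genes were higher in old tumours, with a median of 0.82, and 39 had an unadjusted limma p under 0.05, but 0 were called (smallest limma adjusted p = 0.0715), with 0.0131% of all genes called. Of the young tumours only replicate 3 had a brain tissue score within the range of the untreated old tumours. With the Y-linked covariate the median was 0.22.

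**Figure D5:**
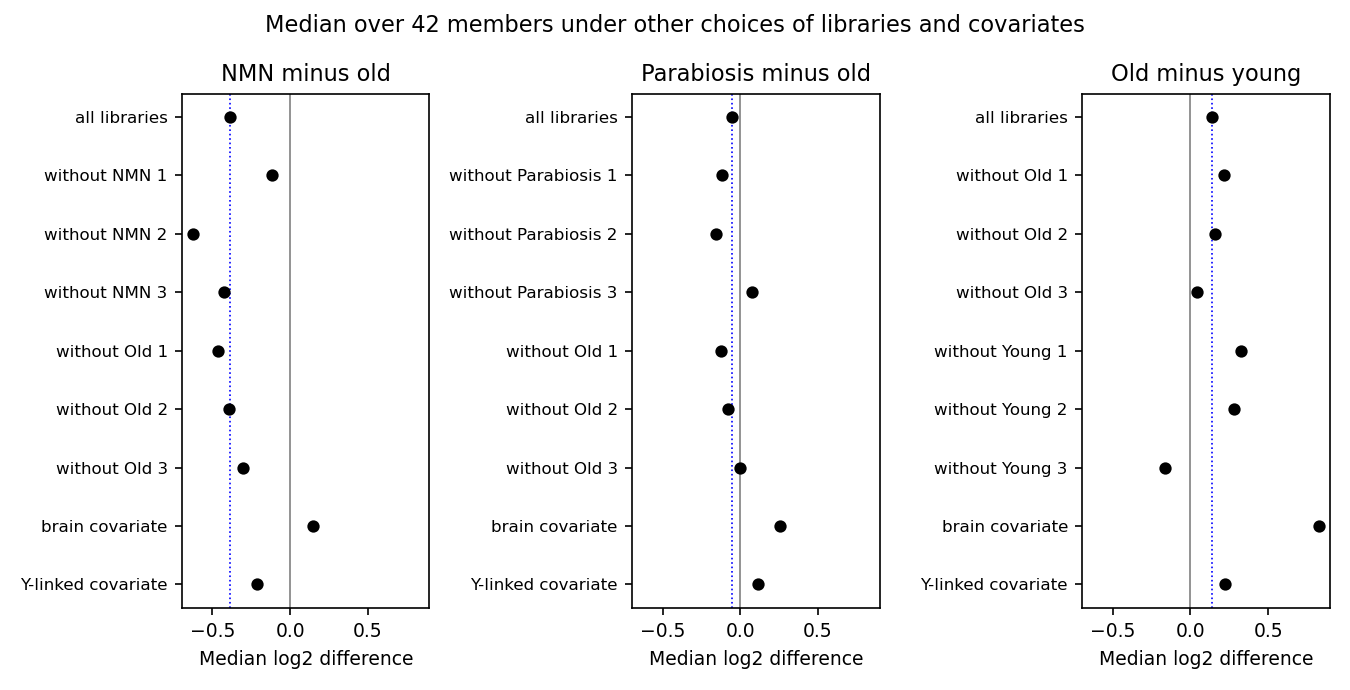
Points are the median log2 difference over the 42 genes with all libraries, without each library of the compared groups in turn, and with the brain tissue or Y-linked score as a covariate. The median between NMN and untreated old tumours stays negative without each library, at -0.62 to -0.11, while the age median turns to -0.17 without young replicate 3 and the parabiosis median to 0.077 without parabiosis replicate 3.

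The remaining pairs were NMN against young, parabiosis against young and NMN against parabiosis. Between NMN and young tumours 38 of the 42 genes had a lower mean with NMN, with a median of -0.26. None of the 42 was called by limma, in a comparison that called 8.15% of all genes (1084 higher and 158 lower with NMN), and 2 had an unadjusted p under 0.05, Rfc3 and Tyms. With edgeR the count of called members was 0 with 2 at an unadjusted p under 0.05, and with DESeq2 it was 0 with 3, where edgeR called 0.611% and DESeq2 15.5% of all genes. Tyms was higher in all NMN libraries (18.5% of all genes were) and Rfc3 lower in all (10.7% of all genes were). Tyms averaged 429 ± 34.4 CPM with NMN against 362 ± 1.252 CPM in young hosts (SD over 3 libraries), and differed on the log2 scale by 0.24 ± 0.11 (SE, limma adjusted p = 0.189). Without young replicate 3 the median was -0.57 and 2 genes of the clamp loader were called, Rfc5 at -0.83 (limma adjusted p = 0.0274) and Rfc1 at -0.52 (limma adjusted p = 0.0481), in a fit that called 14% of all genes. Without NMN replicate 1 the median was 0.041. With the brain tissue covariate it was 0.94, with 42 genes higher and 0 called, and with the Y-linked covariate 0.013, with 22 higher and 20 lower. The brain tissue scores of NMN and young tumours did not overlap, so values with that covariate extend beyond shared scores. All 12 neuron markers had a higher mean with NMN (median 2.62), of which limma called 10.

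Between parabiosis and young tumours 29 genes had a higher mean with parabiosis, with a median of 0.089. None was called by limma, edgeR or DESeq2, with 0, 1 and 1 at an unadjusted p under 0.05, while limma and edgeR called 0% of all genes and DESeq2 6.41%. All 12 neuron markers had a higher mean with parabiosis (median 2.31). Tyms was lower in all parabiosis libraries (10.2% of all genes were), with a log2 difference of -0.22 ± 0.11 (SE, limma adjusted p = 0.309), and 0 of the 42 were higher in all (13.7% of all genes were). Leaving out young replicate 3 gave a median of -0.23 and leaving out young replicate 1 or 2 one of 0.22 or 0.20. Leaving out parabiosis replicate 1, 2 or 3 gave 0.018, -0.018 or 0.22, and quantile normalization, which moved the median of all genes to -0.10, turned it to -0.012. With the brain tissue covariate the median was 1.08 and 4 genes were called, against 0.604% of all genes, all higher with parabiosis, namely Ccne2 at 1.30 (limma adjusted p = 0.0272), Cdc6 at 2.20 (limma adjusted p = 0.0408), Cdt1 at 1.91 (limma adjusted p = 0.0436) and Gins2 at 1.35 (limma adjusted p = 0.0474). The brain tissue scores of parabiosis and young tumours did not overlap, so these calls extend a fitted slope beyond shared scores. With the Y-linked covariate the median was 0.32 and 0 were called.

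Between NMN and parabiosis 40 genes had a lower mean with NMN, with a median of -0.32, and the higher ones were Tyms and E2f1. Limma called 0 of the 42 and 0% of all genes, with Tyms and Gins2 at an unadjusted p under 0.05, while edgeR called 0 and DESeq2 called Tyms alone and 1.47% of all genes, each with 2 at an unadjusted p under 0.05. Tyms was higher in all NMN libraries (6.97% of all genes were) and Pola1 lower in all (7.83% of all genes were). Gins2 averaged 7.80 ± 2.26 CPM with NMN and 13.5 ± 3.83 CPM with parabiosis (SD, n = 3 each) and differed on the log2 scale by -0.71 ± 0.31 (SE, limma adjusted p = 0.502). Without NMN replicate 1 the median of the 42 was -0.031, with 25 genes lower, without NMN replicate 2 it was -0.55 and without parabiosis replicate 3 it was -0.49. With the brain tissue covariate it was -0.079, with 30 lower and 12 higher, and with the Y-linked covariate -0.33. Of the neuron markers 10 of 12 had a higher mean with NMN (median 0.37), and of the myelin markers 8 of 9 (median 0.31).

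Other genes of DNA replication, cell division and nucleotide supply were counted in the same way. Of 40 other fork and origin genes, 38 had a lower mean with NMN than in untreated old tumours, with a median of -0.26, 27 with parabiosis (median -0.051), and 22 had a higher mean in untreated old than in young tumours (median 0.019); limma called 0 in each. Top2a, which untangles copied DNA, had 262, 700.1 and 455 CPM with NMN and 833, 770.3 and 352 CPM with parabiosis, against 601, 596 and 666 CPM in untreated old tumours and 749, 709.6 and 300.3 CPM in young tumours. Orc5, a subunit of the origin recognition complex, had 27.4, 37.3 and 32.3 CPM with NMN, all below the 41.5, 40.5 and 41.999 CPM of untreated old tumours, a log2 difference of -0.36 ± 0.15 (SE, limma adjusted p = 0.480). Orc3, another subunit, went the other way, with 88.7, 76.7 and 72.8 CPM with NMN, all above the 62.8, 60.9 and 72.3 CPM of untreated old tumours. Of the 40 genes, 4 were lower in all NMN than in all untreated old libraries (6.92% of all genes were). Only 1 was higher in all (12.6% of all genes were). Of 20 mitosis genes, 19 had a lower mean with NMN than in untreated old tumours, with a median of -0.40, 15 with parabiosis (median -0.10), and 16 a higher mean in untreated old than in young tumours (median 0.10). Of 14 checkpoint genes of replication stress, 12 had a lower mean with NMN than in untreated old tumours (median -0.18), as had 10 of 12 E2F and RB family genes (median -0.13) and 9 of 9 G1/S kinase and phosphatase genes (median -0.24), with 0 called by limma in these lists.

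Of 16 other deoxynucleotide and thymidylate genes, 13 had a lower mean with NMN than in untreated old tumours (median -0.23) and 6 with parabiosis (median 0.043). The 6 genes of de novo pyrimidine synthesis had medians of -0.17 with NMN and 0.027 with parabiosis, and the 13 of de novo purine synthesis -0.18 and 0.064, with 0 called by limma in these comparisons. Prps1, which makes the activated ribose of purine and pyrimidine synthesis, had 46.6, 49.3 and 45.9 CPM in NMN tumours and 65.5, 74.6 and 82.6 CPM in parabiosis tumours. It had 50.1, 50.3 and 48.1 CPM in untreated old tumours and 54.0, 48.1 and 47.0 CPM in young tumours, so the parabiosis libraries lay above all others. The log2 difference between parabiosis and untreated old tumours was 0.57 ± 0.10 (SE, limma adjusted p = 0.701). Prps2 had 40.8, 47.8 and 48.1 CPM with parabiosis, also above all other libraries. Of the 13 purine genes, 3 were higher in all parabiosis than in all untreated old libraries (6.99% of all genes were). None was lower in all (6.7% of all genes were). Gart, an enzyme of several steps of purine synthesis, had 45.8, 45.5 and 62.0 CPM with NMN, all below the 66.0, 69.9 and 74.4 CPM of untreated old tumours, a log2 difference of -0.46 ± 0.14 (SE, limma adjusted p = 0.480). The call of these lists was Adssl1, the muscle form of adenylosuccinate synthase, which was higher in NMN than in young tumours at 7.39, 5.29 and 7.01 CPM against 1.95, 3.05 and 2.81 CPM, a log2 difference of 1.07 ± 0.22 (SE, limma adjusted p = 0.0274). It was 1 of 13 purine genes, in a comparison that called 8.15% of all genes.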

How the data were processed

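Total RNA of 12 tumours was ribosome-depleted and sequenced as stranded paired ends, per the labels' protocols. FastQC, RSEM 1.2.15, Bowtie2 2.1.0 and edgeR are named, without role or order, per the submitters' processing notes, as are the builds mm10 and GRCm38. A single table was deposited, whose name gives its CPM values as TMM-normalized. RSEM shares reads between similar genes. At a tolerance of 0.01, 100% of deposited CPM values equalled a whole number of reads, giving 18566096 to 26779406 reads per library; 3 reads corresponded to 0.100 to 0.143 CPM, for counting error only. Replicate libraries differed beyond sampling noise (chi-square per degree of freedom 5.35 to 134.4).

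Genes with at least 1 CPM in at least 3 libraries were fitted as log2(CPM + 1), which understates changes of low genes, with 1 mean per group over all 12 libraries in R 4.3.3 with limma 3.58.1 and its variance trend. Tests were two-sided, adjusted by Benjamini-Hochberg over all 15232 genes kept and called under 0.05. Plain means are in CPM. The fit was tested on simulated data, in which genes varied independently. That test does not cover genes that vary together, as the 42 did. Alternatives were another pseudocount (0.25), no filter, a stricter filter (5 CPM), quantile and total scaling, no trend, only the groups compared, a replicate block, a brain tissue covariate and each library left out. Chosen after seeing the data were edgeR 4.0.16 and DESeq2 1.42.0 on recovered reads and a Y-linked covariate. The 42 genes and the other lists were chosen with earlier results of these data known. Values by library were given for up to 4 of the 42 with the smallest p in each main comparison and for 13 picked by role. Of other lists they were given for Top2a, picked by name, and for some of the 4 smallest F test p-values. Pola1, Pole2 and Orc6 were added after their values were seen. Sequences are from RefSeq (GRCm38.p6).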

Additional observations from a re-analysis of the deposited data

Results flagged for a closer look

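Tyms was flagged because all NMN libraries lay above its untreated old mean and all parabiosis libraries below it. It averaged 429 ± 34.4 CPM with NMN and 312 ± 33.1 CPM with parabiosis (SD, n = 3 each). All NMN libraries were above all parabiosis libraries (6.97% of all genes were). Against the shared untreated old tumours its mean was higher with NMN, by 0.15, and lower with parabiosis, by -0.31, on the log2(CPM + 1) scale. The test of the difference itself gave 0.46 ± 0.11 (SE, limma adjusted p = 0.255), which did not pass. DESeq2 on recovered reads gave 0.45 (DESeq2 adjusted p = 0.0106), which did, and it called 1.47% of all genes. With edgeR the count of called members was 0.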

How the results depend on the processing

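The pseudocount, filters, total scaling, trend and pairwise fits left the count of called members at 0. The filters, trend and pairwise fits could not move the medians, since they leave the group means of the 42 genes as they were. Under the pseudocount and total scaling all medians kept their sign. Each moved by less than 0.41, the pooled within-group SD of the library median. This limit is wider than any median of the main fit, the largest being -0.38 between NMN and untreated old tumours. Quantile normalization gave a median of all genes of -0.16 between NMN and young tumours (-0.014 without it) and of -0.10 between parabiosis and young tumours (0.011 without it), and split the genes called between NMN and young into 734 higher and 336 lower, against 1084 and 158. With the brain tissue covariate the median of the 42 genes was 0.82 for old against young, 0.14 for NMN against old, 0.94 for NMN against young and 1.08 for parabiosis against young, where 4 members were called, and for NMN against parabiosis -0.079. The brain tissue scores did not overlap between young and either treated group, or between NMN and untreated old tumours. DESeq2 called 1 member between NMN and parabiosis and 1 over any group, edgeR 0. Leaving out 1 library gave 0 to 2 called members between NMN and young tumours and 0 in the other comparisons. Genes called between NMN and young tumours numbered 1242 in the main fit, 742 without a filter, 29 with only those groups, 93 with edgeR, 2367 with DESeq2, 0 with the brain tissue or the Y-linked covariate, and 0 to 2129 with 1 library left out (2129 without young replicate 3). Where limma called 0 genes, DESeq2 called 72 between old and young, 46 between NMN and old, 44 between parabiosis and old, 977 between parabiosis and young and 224 between NMN and parabiosis, and limma called 92 between parabiosis and young with the brain tissue covariate and up to 701 with 1 library left out.

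Deviations of same-numbered replicates correlated at -0.50 to 0.60 (median 0.22), over 0.1 in 10 of 18 pairs, against a median of -0.065 and 14 of 36 pairs for different numbers. All 6 pairs of replicate 2 were positive, at 0.21 to 0.60. Since not every pair was over 0.1, the numbers were not taken to pair the samples. With the replicate block 0 members were called in each comparison, and 1376 genes between NMN and young tumours. Of the alternative values of single named genes in the 3 main comparisons, 1153 kept their sign and 71 changed it, none of these called. Many of the 1153 could not change sign. The filters, trend, pairwise fits and replicate block leave the difference as it was, as does leaving out a library of a group not compared. With 3 libraries a group and libraries that differ this much, differences of the size seen in single members were not resolved at this depth of replication.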

Other observations

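The 42 genes were also summed and set against the sum of the 4 Y-linked genes in the same library. The ratio of the sums of CPM was 12.2, 11.2 and 14.0 in NMN tumours and 12.9, 10.5 and 21.5 in parabiosis tumours. It was 11.4, 9.25 and 10.5 in untreated old tumours and 10.6, 9.96 and 4.09 in young tumours. Parabiosis replicate 3 and young replicate 3, both low for the 42 genes, thus held the highest and the lowest ratio. Whether the Y-linked sum stands for the same cells in every library, as a comparison of these ratios needs, was not tested. Xist was at 1127, 834.5 and 742.5 CPM in NMN tumours and 516, 499 and 934 CPM in parabiosis tumours. It was at 1.88, 2.76 and 380 CPM in untreated old tumours and 202, 164 and 5.33 CPM in young tumours. Untreated old replicates 1 and 2 and young replicate 3 were thus far below the rest, although all hosts are labelled female. Their neuron marker sums were 1740, 1087 and 1113 CPM. All NMN and parabiosis libraries lay above all untreated old libraries for Xist. Whether the hosts differed in sex, and what part this has in the comparisons with untreated old tumours, was not tested.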
